A study of Mus musculus with 8 samples.

Results

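Potassium channels let potassium ions leave or enter a cell and so set its resting voltage. In lung artery smooth muscle the closing of voltage-gated potassium channels under low oxygen depolarizes the cell and opens calcium channels, which contracts the vessel, and nitric oxide acts the other way in part by opening calcium-activated potassium channels. In airway and alveolar epithelium other potassium channels drive salt and fluid transport, and in T cells and macrophages they shape calcium signals and inflammasome activity. The genes described here are all those whose symbol begins with Kcn, the name given to potassium channel pore subunits and their auxiliary subunits, 95 of the 23284 genes in the table. Of these, 41 reached 10 in 4 or more of the 8 libraries and were tested, and 54 were undetected by that rule.

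The series measured mRNA of whole lungs from 8 wild-type (WT) C57BL/6 recipients of transplanted bone marrow, all held in hypoxia for 3 days. In 4 recipients the donor marrow lacked all 3 nitric oxide synthases, the neuronal, inducible and endothelial enzymes encoded by Nos1, Nos2 and Nos3 (NOS-null marrow), and in 4 recipients the donor marrow was WT (WT marrow). Both groups were transplanted and both were hypoxic, so neither response is measured by any value here, and the lung cells of the recipients still had the 3 genes. The sources used here do not give the mice's age or how many lung cells were of donor origin. Values are read counts that the authors divided by a size factor for each library, called scaled reads, in which 1 read was worth 0.937 to 1.088. Library totals ran from 7767070 to 8625140 scaled reads. The lung genes Sftpc of alveolar type 2 cells, Ager of alveolar type 1 cells and Scgb1a1 of club cells stood at 64852 or more, 17085 or more and 138122 or more in every library. Of the 3 genes removed from the donor marrow, Nos3 stood at 177 to 219 scaled reads with NOS-null marrow, against 171 to 207 with WT marrow, and Nos1 was at or near 0 in both groups. Nos2 stood at 13.3, 20.8, 40.4 and 43.5 scaled reads in the 4 NOS-null marrow libraries and at 87.4, 115, 88.7 and 103 in the WT marrow libraries. On the first principal component of all tested genes NOS-null marrow replicates 1 and 2 lay at −57.7 and −32.3, replicates 3 and 4 at −3.35 and −1.40, and WT marrow libraries between 17.7 and 27.2. The summed level of 5 neutrophil markers was 83082 scaled reads in replicate 1 of NOS-null marrow, against 3783 to 8576 among the other 3 of that group and 1478 to 3692 with WT marrow. Reads of 17 tested members may be shared with another gene, since their exons overlap it and the strand of the libraries is not stated.

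Among the 41 tested members, Kcna2 and Kcnq5 rose with NOS-null marrow and Kcnb2 fell. All 3 encode pore subunits of voltage-gated channels, which open when the membrane depolarizes and pull the voltage back down. With limma and Benjamini-Hochberg adjustment over all 14008 tested genes, 3 of 41 members passed an adjusted p of 0.05, which is 7.32%, beside 4.05% of all tested genes. The share higher was 1.87% and the share lower 2.18% of all tested genes. The other 38 members did not pass. At an unadjusted p under 0.05 there were 8 members, or 19.5%, beside 26.6% of all tested genes, a share below that background. Log2 changes, taken on log2(scaled reads + 1) as NOS-null marrow minus WT marrow, ran from −1.496 for Kcne3 to 0.95 for Kcnq5 over the 41 members. They were positive in 22 and negative in 19, with a median of 0.04, beside 0.000509 over all tested genes, and without WT marrow replicate 2 the median over members was −0.0764. Nothing in the labels tells how replicates were housed, and the p-values measure only the spread between these 8 samples. In whole lung, fewer cells of a type and less RNA per cell cannot be told apart.

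The pore sequences show what the changed members have in common with most of the other tested pore genes. Each potassium channel pore is lined by a short selectivity filter that strips water from potassium ions and passes them in single file. Its signature is glycine, tyrosine and glycine in most channels, read from codons of the form GGNTANGGN, where N is any base. This motif was searched in frame on the coding strand in the longest complete coding sequence of each gene in GENCODE M21. It occurred in 23 of the 30 tested pore or silent subunit genes and in 0 of the 10 tested auxiliary subunit genes, beside 6.11% of 21504 coding genes. The 7 pore genes without it, Kcnh1, Kcnh2, Kcnh3, Kcnj8, Kcnk2, Kcnk12 and Kcnk13, all had GGNTTNGGN in frame, in which the middle codon differs. No share of all coding genes is available for GGNTTNGGN, so these 7 matches have no background. The stretches below are the coding strand from GRCm38, with the 5 filter codons in capitals. They are shown for 2 of the members that changed, Kcna2 and Kcnb2, and, for comparison, for Kcns3 and Kcnk3, tested members of the silent and tandem-pore classes.
Kcna2: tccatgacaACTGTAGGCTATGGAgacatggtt
Kcnb2: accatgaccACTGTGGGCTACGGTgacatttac
Kcns3: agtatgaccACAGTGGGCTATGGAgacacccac
Kcnk3: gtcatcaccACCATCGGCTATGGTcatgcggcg

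The Kcna2 stretch lies in 1 coding exon at chr3:107105215-107105247 on the plus strand, and the Kcnb2 stretch in 1 coding exon at chr1:15710037-15710069 on the plus strand. The Kcns3 stretch lies in 1 coding exon at chr12:11091566-11091598 on the minus strand. The Kcnk3 stretch is split over 2 exons of chromosome 5.

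Kcna2 encodes a Shaker-type delayed rectifier subunit known from axons and from arterial smooth muscle. It lies on chromosome 3, 107101146 to 107115005 (GRCm38). Its values were 199.9, 219, 191 and 188 scaled reads in NOS-null marrow replicates 1 to 4, against 91.4, 93.7, 144 and 120 in WT marrow replicates 1 to 4. The groups did not overlap, and the 4 NOS-null marrow libraries lay close together while WT marrow replicates 3 and 4 stood above replicates 1 and 2. The means were 199.5 ± 13.7 with NOS-null marrow, against 112 ± 24.8 with WT marrow (SD, n = 4 each). The log2 change was 0.85 (SE 0.15, limma adjusted p = 0.0219). Kcna2 no longer passed when NOS-null marrow replicate 2 was left out (adjusted p = 0.0717), nor when WT marrow replicate 1 (0.0750) or 2 (0.0649) was. With NOS-null marrow replicates 1 and 2 both left out, the log2 change was 0.78 (adjusted p = 0.0784).

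Kcnq5 encodes a subunit of the M-type channels, slow voltage-gated channels of neurons and vascular smooth muscle. It lies on chromosome 1, 21398403 to 21961942, and shares exon bases with the gene model Gm26580 on the opposite strand, from which reads cannot be told apart if the counting ignored strand. It stood at 66.6, 82.3, 69.0 and 45.7 scaled reads in NOS-null marrow replicates 1 to 4, against 28.8, 30.9, 41.4 and 32.1 in WT marrow replicates 1 to 4. The groups did not overlap, with NOS-null marrow replicate 4 nearest to the WT marrow values. Means were 65.9 ± 15.1 with NOS-null marrow, against 33.3 ± 5.56 with WT marrow (SD, n = 4 each), a log2 change of 0.95 (SE 0.21, adjusted p = 0.0366). The call was lost in 7 of the 8 fits that left out 1 library, all but the one that omitted NOS-null marrow replicate 4. In those 7 fits the adjusted p was 0.0534, 0.111 and 0.0537 without NOS-null marrow replicates 1, 2 and 3. It was 0.118, 0.0881, 0.0622 and 0.0723 without WT marrow replicates 1 to 4. From the FPKM table, whose values are corrected for transcript length and depth, the log2 change was 0.86 (adjusted p = 0.0515). With NOS-null marrow replicates 1 and 2 both left out it was 0.75 (adjusted p = 0.170).

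Kcnb2 encodes a delayed rectifier subunit of the Shab type, found in neurons and smooth muscle. The gene lies on chromosome 1, 15287254 to 15723750. Its values were 10.3, 7.29, 11.8 and 10.9 scaled reads in NOS-null marrow replicates 1 to 4, against 24.8, 26.2, 18.7 and 19.9 in WT marrow replicates 1 to 4. The groups did not overlap, and with about 1 read to a scaled read these levels rest on few reads. Means were 10.1 ± 1.96 with NOS-null marrow, against 22.4 ± 3.68 with WT marrow (SD, n = 4 each), and the log2 change was −1.09 (SE 0.24, adjusted p = 0.0407). It no longer passed without NOS-null marrow replicates 1 or 2 (adjusted p = 0.0550 and 0.107) or without WT marrow replicates 1, 2, 3 or 4 (0.128, 0.0997, 0.0803 and 0.0668). With NOS-null marrow replicates 1 and 2 both left out, its log2 change was −0.91 (adjusted p = 0.158). The summed level of 5 neuron and glia markers was 121 to 179 scaled reads with NOS-null marrow, against 171 to 225 with WT marrow, 1 of the 3 tested was lower, and their part in the values of Kcna2, Kcnq5 and Kcnb2 was not tested.

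**Figure D1:**
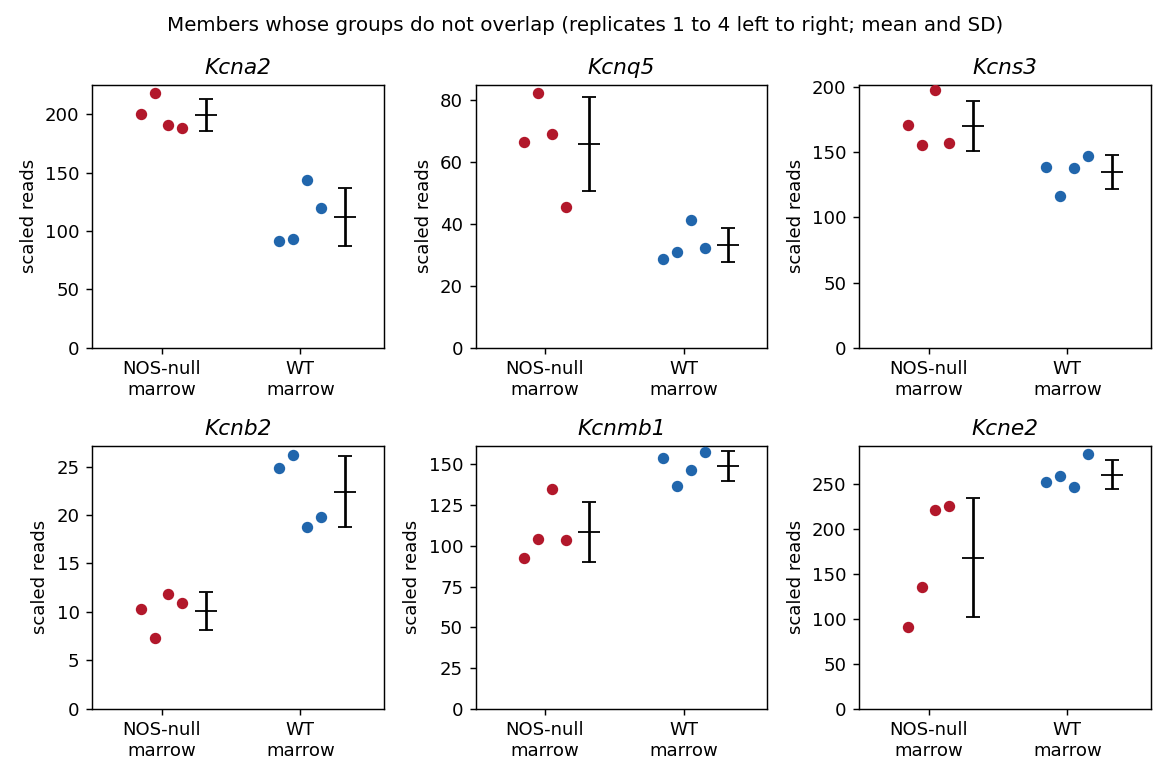
Scaled reads (vertical axes, from 0) in each library for the 6 tested members whose groups did not overlap, NOS-null marrow left and WT marrow right, with the mean and SD of 4 libraries. Kcna2, Kcnq5 and Kcns3 lie higher with NOS-null marrow and Kcnb2, Kcnmb1 and Kcne2 lower, and 3 of the 6 (Kcna2, Kcnq5 and Kcnb2) passed an adjusted p of 0.05.

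Kcna2 and Kcnq5 were the members that rose, and their promoters are given here. Hypoxia was common to all libraries, so its effect on these genes is not measured. The windows are 300 bases around the start site, most of them upstream of it (RefSeq, GRCm38.p6). They were searched on both strands for ACGTG and GCGTG, the core letters bound by hypoxia-inducible factors, and for the CArG box, the site of serum response factor. Capitals mark the matches, and adjacent capitals in Kcnq5 are matches on opposite strands that overlap.
Kcna2: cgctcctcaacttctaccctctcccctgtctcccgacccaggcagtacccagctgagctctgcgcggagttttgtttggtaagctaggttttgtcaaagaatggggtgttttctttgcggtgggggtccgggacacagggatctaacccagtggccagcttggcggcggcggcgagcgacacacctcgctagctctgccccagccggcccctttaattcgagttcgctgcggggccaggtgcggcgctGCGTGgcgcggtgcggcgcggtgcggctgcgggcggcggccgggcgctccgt
Kcnq5: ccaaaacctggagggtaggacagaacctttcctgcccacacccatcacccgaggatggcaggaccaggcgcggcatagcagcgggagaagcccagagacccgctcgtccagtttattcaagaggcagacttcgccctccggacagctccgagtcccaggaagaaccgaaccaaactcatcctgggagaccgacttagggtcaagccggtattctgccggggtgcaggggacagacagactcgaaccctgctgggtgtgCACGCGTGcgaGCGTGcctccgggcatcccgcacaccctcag

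The Kcna2 window is chr3:107101317-107101616 on the plus strand and the Kcnq5 window chr1:21961893-21962192 on the minus strand, and the table holds a further upstream window for Kcnq5. GCGTG occurred once in the Kcna2 window and at 3 places in this Kcnq5 window, while the further Kcnq5 window held neither ACGTG nor GCGTG. Of all 32851 promoter windows of this length, 43.8% held ACGTG or GCGTG, so a match is common. Among 43 windows of 31 tested members, 21 held ACGTG or GCGTG. No CArG box was found in those 43 windows, and 1.63% of all windows held one. These letters in a window are a description and not a measured binding site.

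The 10 further voltage-gated pore genes tested did not pass. Kcna3, the channel that sustains calcium entry in activated T cells, stood at 24.6, 33.3, 22.7 and 30.5 scaled reads in NOS-null marrow replicates 1 to 4, against 23.8, 20.6, 12.8 and 20.8 with WT marrow. The groups overlapped, and the log2 change was 0.50 (95% interval −0.03 to 1.04, adjusted p = 0.212). The summed level of 4 T cell markers in the table was 232 to 686 scaled reads with NOS-null marrow, against 162 to 248 with WT marrow, 0 of the 4 passed, and their part in the Kcna3 values was not tested. Kcnq1, the epithelial and cardiac channel, averaged 135 ± 14.3 scaled reads in NOS-null marrow libraries, against 150.4 ± 5.20 in WT marrow libraries (log2 change −0.16, 95% interval −0.39 to 0.08, adjusted p = 0.368). It shares exon bases on the opposite strand with Kcnq1ot1, a long non-coding RNA that is no channel although the symbol rule takes it in. Kcnq1ot1 stood at 371 to 849 scaled reads with NOS-null marrow, against 395 to 824 with WT marrow, and replicate 4 was the highest of each group. Further tested genes of this class included Kcna1, Kcnd3, Kcnh1, Kcnh2 and Kcnh3, with log2 changes between −0.37 for Kcnh2 and 0.50 for Kcnh3 (adjusted p from 0.198 to 0.839).

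In the classes other than voltage-gated pores, 28 members were tested and limma called 0 of them, while 5 had an unadjusted p under 0.05. These 5 were the auxiliary genes Kcnmb1, Kcne3 and Kcne2, the inward rectifier Kcnj13 and the silent subunit Kcns3. Over all classes the groups did not overlap in 6 members, 3 higher and 3 lower with NOS-null marrow. This is 14.6% of the 41, beside 17.1% of all tested genes, of which 7.82% lay higher and 9.29% lower.

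Silent subunits form no channel alone and change the behaviour of the pore subunits they join, and Kcns3 is the member known for this in lung artery smooth muscle. Kcns3 was the 1 tested gene of 10 in this class. It stood at 170, 155, 197 and 157 scaled reads in NOS-null marrow replicates 1 to 4, against 138, 116, 138 and 147 with WT marrow. The groups did not overlap, and the log2 change was 0.33 (SE 0.12, 95% interval 0.07 to 0.60, adjusted p = 0.119), which did not pass.

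Inward rectifiers hold the resting voltage near the potassium equilibrium. Of 6 tested, 0 passed by limma and 1 had an unadjusted p under 0.05. Kcnj15, an epithelial rectifier and the channel gene with most scaled reads, stood at 641, 678, 523 and 587 scaled reads with NOS-null marrow, against 460, 368, 556 and 606 with WT marrow. The groups overlapped (log2 change 0.31, 95% interval −0.03 to 0.64, adjusted p = 0.222). Kcnj13, a rectifier of transporting epithelia whose exons overlap the opposite-strand gene Gigyf2, stood at 81.0, 92.7, 115 and 99.0 scaled reads with NOS-null marrow, against 137, 120, 156 and 115 with WT marrow. The highest NOS-null marrow value and the lowest WT marrow value met, at 115.4 and 115.3, and the log2 change was −0.44 (SE 0.15, adjusted p = 0.0968). Kcnj2, the classical rectifier of endothelium and muscle, had a log2 change of 0.19 (95% interval −0.26 to 0.64, adjusted p = 0.579). Its WT marrow values spread from 179 to 383 scaled reads around NOS-null marrow values of 277 to 340. Kcnj8, the pore of the metabolically gated channel of pericytes and smooth muscle, had a log2 change of −0.26 (95% interval −0.75 to 0.23, adjusted p = 0.471). The summed level of 5 pericyte markers was 2367 to 3207 scaled reads with NOS-null marrow, against 2537 to 3697 with WT marrow, 1 of the 5 fell, and their part was not tested. The remaining Kcnj5 and Kcnj12 had log2 changes of 0.13 and 0.02.

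Tandem-pore channels carry the background leak of potassium that most sets the resting voltage. Of 7 tested, 0 passed by limma and 0 had an unadjusted p under 0.05. Kcnk3, whose human counterpart is mutated in heritable pulmonary arterial hypertension, stood at 327, 256, 332 and 206 scaled reads in NOS-null marrow replicates 1 to 4, against 253, 166, 274 and 314 in WT marrow replicates 1 to 4. The groups overlapped, and the log2 change was 0.17 (95% interval −0.30 to 0.63, adjusted p = 0.638). Kcnk6, a channel of macrophages and vessels whose loss raises lung artery pressure in mice, had a log2 change of −0.13 (95% interval −0.43 to 0.17, adjusted p = 0.549). Kcnk13, the main leak channel of microglia, had a log2 change of −0.08 (95% interval −0.46 to 0.29, adjusted p = 0.775). Kcnk1, a kidney and airway epithelial channel, stood at 190, 172, 157 and 140 scaled reads with NOS-null marrow, against 139, 133, 148 and 130 with WT marrow, with 1 NOS-null marrow library inside the WT marrow range. Its log2 change was 0.25 (95% interval −0.01 to 0.51, adjusted p = 0.197). For Kcnk2, Kcnk5 and Kcnk12 the log2 changes were 0.22, 0.32 and 0.32 (adjusted p from 0.357 to 0.488).

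Calcium-activated channels open when calcium in the cell rises, and the large-conductance channel built from Kcnma1 is a known target of nitric oxide and cyclic GMP in smooth muscle. Of 3 tested, 0 passed by limma and 0 had an unadjusted p under 0.05. Kcnma1 stood at 33.8, 30.2, 28.6 and 15.2 scaled reads with NOS-null marrow, against 21.9, 26.2, 26.6 and 38.8 with WT marrow. The groups overlapped (log2 change −0.10, 95% interval −0.72 to 0.52, adjusted p = 0.849). Kcnn3, a small-conductance channel of endothelium, averaged 33.4 ± 3.60 scaled reads in NOS-null marrow libraries, against 35.7 ± 1.68 in WT marrow libraries (log2 change −0.10, 95% interval −0.46 to 0.26, adjusted p = 0.717). Kcnn4, the intermediate-conductance channel of endothelium, T cells and macrophages, stood at 34.9, 93.7, 46.3 and 53.3 scaled reads with NOS-null marrow, against 28.8, 57.1, 27.6 and 29.3 with WT marrow. Replicate 2 was the highest of each group, and the log2 change was 0.63 (95% interval −0.08 to 1.35, adjusted p = 0.233). Leaving out replicate 2 of NOS-null marrow gave 0.37, and leaving out replicate 2 of WT marrow gave 0.88. Summed T cell markers were highest in NOS-null marrow replicate 2, at 686 scaled reads. Summed alveolar macrophage markers were 23981, 16814, 9324 and 11528 scaled reads in replicates 1 to 4 of NOS-null marrow, while WT marrow libraries held 7199 to 8392, and were highest in replicate 1, where Kcnn4 was lowest of its group. Of the 5 alveolar macrophage markers, 1 passed as higher and 1 as lower with NOS-null marrow. Summed endothelial markers were 22059 to 27071 scaled reads with NOS-null marrow, against 20714 to 22290 with WT marrow, with 1 of the 5 higher and 1 lower. Erythroid markers summed to 16535, 15285, 12174 and 15614 scaled reads in replicates 1 to 4 of NOS-null marrow, against 7574 to 8614 with WT marrow. Of the 4 tested erythroid markers, 4 passed as higher. The part of T cells, alveolar macrophages, endothelium and erythroid cells in the Kcnn4 values was not tested.

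**Figure D2:**
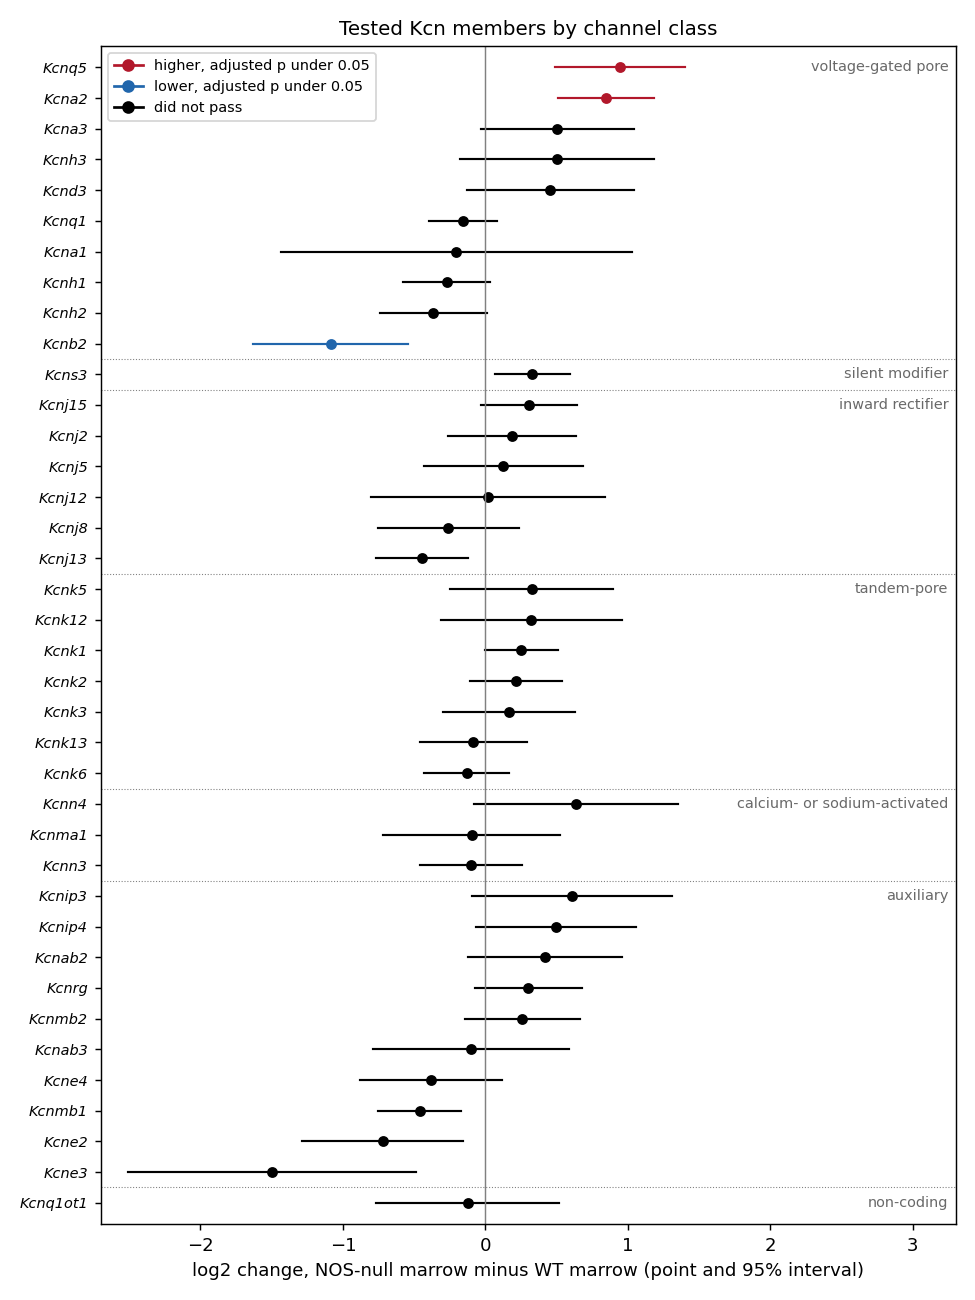
Log2 change, NOS-null marrow minus WT marrow (horizontal axis, point and 95% interval from limma), for 38 of the 41 tested members, grouped by channel class and ordered by size within a class. Kcnq5 and Kcna2 are coloured as higher and Kcnb2 as lower, and the intervals of most other members include 0.

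Auxiliary subunits bind the pore proteins and change their gating or traffic. Of 10 tested, 0 passed by limma and 3 had an unadjusted p under 0.05. Kcnmb1, the smooth muscle subunit that raises the calcium sensitivity of the channel built from Kcnma1, stood at 92.3, 104, 135 and 103 scaled reads in NOS-null marrow replicates 1 to 4, against 154, 137, 147 and 158 with WT marrow. The groups did not overlap, although NOS-null marrow replicate 3, at 135.1, lay close to WT marrow replicate 2, at 136.8. The log2 change was −0.46 (SE 0.13, 95% interval −0.76 to −0.17, adjusted p = 0.0684), and without NOS-null marrow replicate 3 it passed (log2 change −0.57, adjusted p = 0.0346). The summed level of 5 smooth muscle markers was 17073, 15828, 19292 and 16763 scaled reads with NOS-null marrow, against 28168 to 32072 with WT marrow, with 4 of the 5 lower. NOS-null marrow replicate 3 was the highest of its group for Kcnmb1 and for these markers, whose part in the Kcnmb1 values was not tested. These markers were lower in the same libraries in which Kcna2 and Kcnq5 were higher and Kcnb2 lower, and their part in those values was not tested either.

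Kcne2 encodes a small single-span subunit that joins Kcnq1 in secreting epithelia. It stood at 90.2, 135, 221 and 225 scaled reads in NOS-null marrow replicates 1 to 4, against 252, 259, 246 and 283 with WT marrow. The groups did not overlap, and NOS-null marrow replicates 1 and 2 lay far below replicates 3 and 4. The log2 change was −0.72 (SE 0.25, adjusted p = 0.113), without NOS-null marrow replicate 1 it was −0.46 (adjusted p = 0.138), and with replicates 1 and 2 of that group both left out it was −0.22 (adjusted p = 0.326). The summed level of 5 alveolar type 2 markers was 102621, 131209, 143968 and 131752 scaled reads in NOS-null marrow replicates 1 to 4 and 136892 to 162470 with WT marrow, 0 of the 5 passed, and their part was not tested. Kcne3, the subunit that holds Kcnq1 open in airway and gut epithelium, stood at 6.15, 7.29, 4.93 and 11.96 scaled reads with NOS-null marrow, against 11.92, 54.3, 14.8 and 24.6 with WT marrow. WT marrow replicate 2 was the highest, and the groups met at 11.96 and 11.92. The log2 change of −1.496 was the largest in size among the 41 tested members, with a wide error (SE 0.45, adjusted p = 0.0791), and without WT marrow replicate 2 it was −1.08 (adjusted p = 0.153). Kcne4 had a log2 change of −0.38 (95% interval −0.88 to 0.12, adjusted p = 0.297).

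Kcnab2, a cytoplasmic subunit of Kcna channels found in brain and blood cells, stood at 100.5, 113, 66.1 and 66.3 scaled reads with NOS-null marrow, against 74.5, 85.2, 51.2 and 47.3 with WT marrow (log2 change 0.42, adjusted p = 0.291). Leaving out 1 library gave 0.28 to 0.57, and leaving out NOS-null marrow replicates 1 and 2, the highest of the group, gave 0.0782 (adjusted p = 0.896). Kcnrg, a soluble protein that hinders channel assembly, averaged 119 ± 21.2 scaled reads in NOS-null marrow libraries, against 96.1 ± 18.1 in WT marrow libraries (log2 change 0.30, 95% interval −0.08 to 0.68, adjusted p = 0.277). Kcnmb2, Kcnab3, Kcnip3 and Kcnip4 had log2 changes of 0.26, −0.10, 0.61 and 0.49 (adjusted p from 0.237 to 0.858).

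Levels were compared between genes by FPKM, which corrects for transcript length. By mean over the 8 libraries the order began with Kcne2, Kcnj15 and Kcnj13, but it differed between the groups: Kcnj15 was highest with NOS-null marrow and Kcne2 with WT marrow. Kcne2 stood at 13.5 ± 5.32 FPKM with NOS-null marrow and 20.9 ± 1.28 FPKM with WT marrow (SD, n = 4 each). Kcnj15 stood at 15.05 ± 1.67 FPKM with NOS-null marrow and 12.3 ± 2.59 FPKM with WT marrow, and Kcnj13 at 10.1 ± 1.497 FPKM with NOS-null marrow and 13.8 ± 1.92 FPKM with WT marrow. The next 7 by mean FPKM over the 8 libraries were Kcnrg, Kcnk3, Kcnk1, Kcne4, Kcnj2, Kcns3 and Kcnq1, from 9.80 to 6.04 FPKM. Among these, Kcnk1 stood above Kcne4 with NOS-null marrow (9.35 ± 1.197 and 6.29 ± 1.202 FPKM) and below it with WT marrow (7.80 ± 0.456 and 8.37 ± 2.54 FPKM). Of the 3 members that changed, Kcna2 stood at 2.09 ± 0.144 FPKM with NOS-null marrow and 1.18 ± 0.260 FPKM with WT marrow, Kcnq5 at 1.17 ± 0.269 FPKM with NOS-null marrow and 0.591 ± 0.0986 FPKM with WT marrow, and Kcnb2 at 0.235 ± 0.0458 FPKM with NOS-null marrow and 0.524 ± 0.0860 FPKM with WT marrow. In all, 29 tested members averaged at least 1 FPKM and 12 less.

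**Figure D3:**
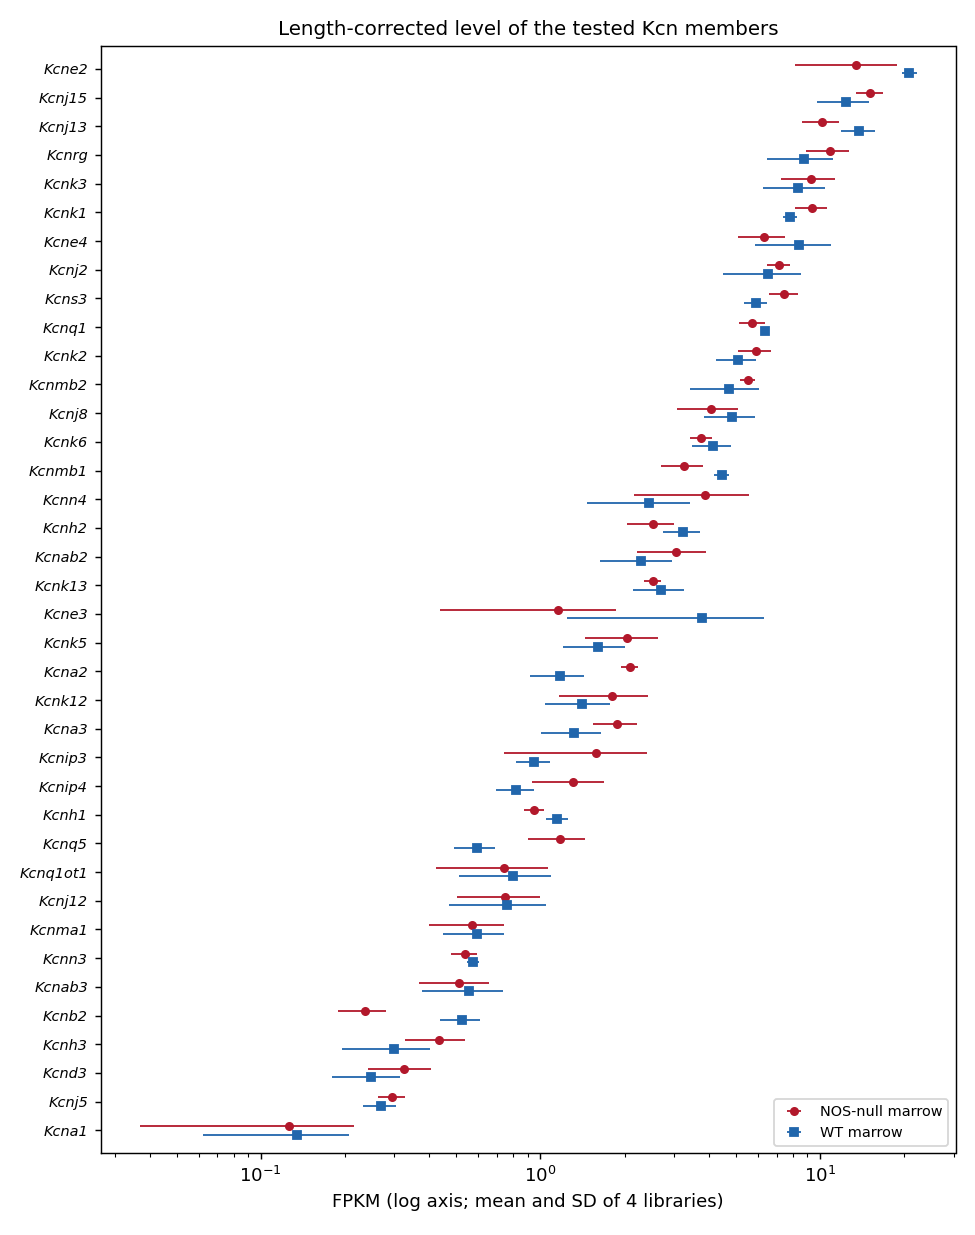
FPKM on a log axis (mean and SD of 4 libraries) for 38 of the 41 tested members, from the highest mean at the top, with circles for NOS-null marrow and squares for WT marrow. Kcne2, Kcnj15 and Kcnj13 lead by the mean over 8 libraries, and of the members that changed Kcna2 lies near the middle and Kcnq5 and Kcnb2 lower in a range of means from 0.130 to 17.2 FPKM.

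The tested auxiliary subunits made up 26.0, 28.9, 30.6 and 30.5% of the summed FPKM of all 95 members in NOS-null marrow replicates 1 to 4, against 36.1, 35.4, 33.9 and 30.6% in WT marrow replicates 1 to 4. Undetected members count in that total but in none of the class shares given here. The auxiliary class includes Kcne2, whose mean was 13.5 FPKM with NOS-null marrow, against 20.9 FPKM with WT marrow. Class shares without Kcne2 were not computed. The tested tandem-pore channels made up 25.2, 20.7, 20.9 and 19.3% with NOS-null marrow, against 18.2, 17.0, 19.3 and 21.3% with WT marrow. The tested voltage-gated pores made up 12.4 to 13.7% with NOS-null marrow, against 11.9 to 14.3% with WT marrow. The summed FPKM of all 95 members was 148 to 169.9 with NOS-null marrow, against 155 to 174 with WT marrow, and these ranges overlap.

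Within a group the tested members varied more than the average gene. The median SD of log2(scaled reads + 1) among replicates was 0.29 over members, beside 0.19 over all tested genes, in NOS-null marrow, and 0.31 beside 0.16 in WT marrow. On the first principal component of the 41 members, with 44.8% of their variance, NOS-null marrow replicates 1 to 4 lay at −2.16, −2.75, −0.84 and −0.03 and WT marrow replicates 1 to 4 at 1.23, 2.60, 0.47 and 1.46. The groups lay apart on this axis, with NOS-null marrow replicates 1 and 2 at the far end.

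**Figure D4:**
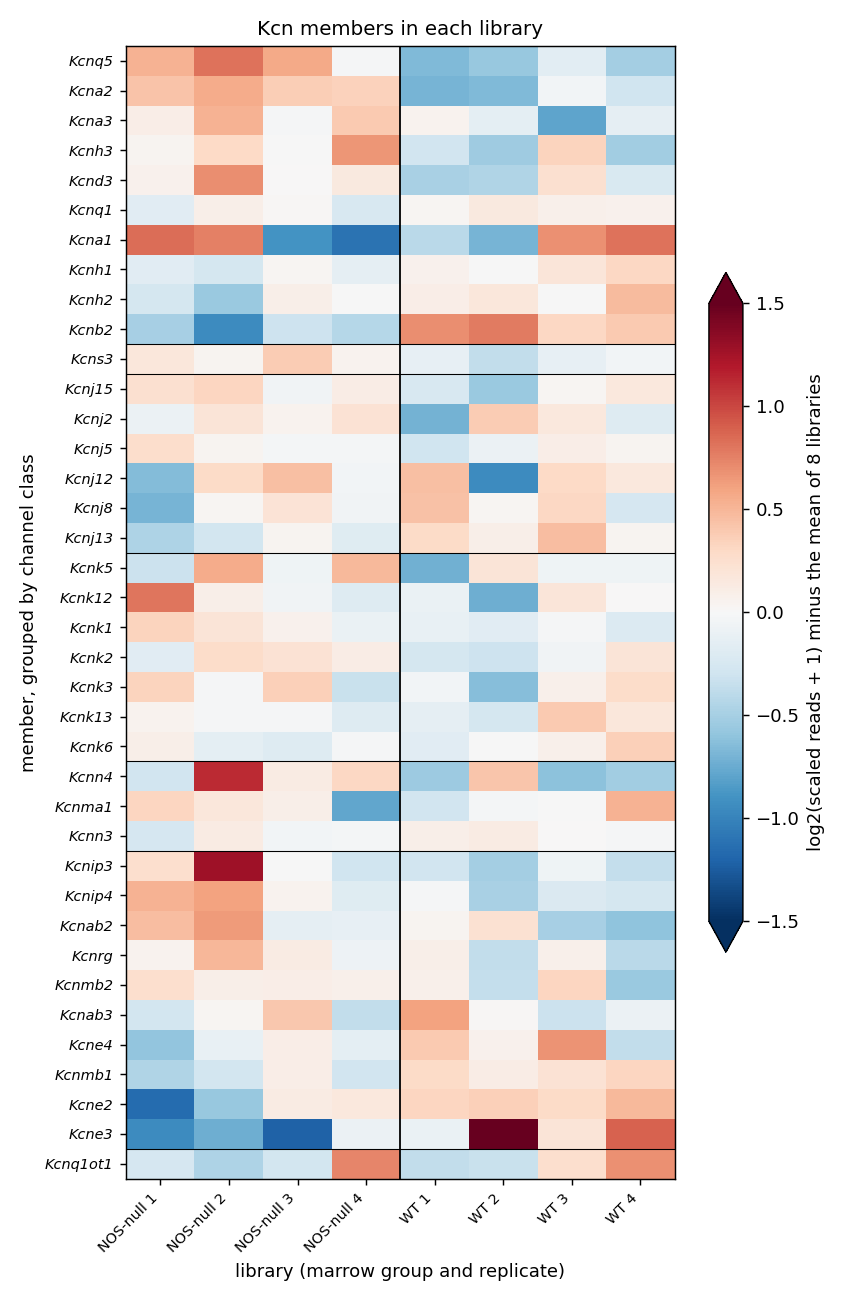
Log2(scaled reads + 1) minus the gene's mean over 8 libraries (colour) for 38 of the 41 tested members (rows, grouped by channel class) in each library (columns, NOS-null marrow left of the line). Kcna2 is above its mean in all 4 NOS-null marrow libraries and Kcnq5 in replicates 1 to 3 of them, and Kcne3 and Kcne2 show their lowest values in NOS-null marrow replicates 3 and 1.

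The 54 undetected members included genes best known from brain, heart, kidney and sensory cells. They were 17 voltage-gated pores (among them Kcna4, Kcna5, Kcna7, Kcna10, Kcnd2 and Kcnh5) and 9 silent subunits (Kcnf1, Kcng1, Kcng2, Kcng3, Kcng4, Kcns1, Kcns2, Kcnv1 and Kcnv2). There were 9 inward rectifiers (Kcnj1, Kcnj3, Kcnj4, Kcnj6, Kcnj9, Kcnj10, Kcnj11, Kcnj14 and Kcnj16) and 7 tandem-pore channels (Kcnk4, Kcnk7, Kcnk9, Kcnk10, Kcnk15, Kcnk16 and Kcnk18). The last 12 were 5 genes placed by symbol alone with the calcium- or sodium-activated channels (Kcnn1, Kcnn2, Kcnt1, Kcnt2 and Kcnu1) and 7 auxiliary subunits (Kcnab1, Kcne1, Kcne1l, Kcnip1, Kcnip2, Kcnmb3 and Kcnmb4). Of the 54, 3 were listed at 0 in every library (Kcnk9, Kcnk16 and Kcnk18), which by counting error alone allows a level of up to 3 reads, or 2.81 to 3.26 scaled reads. In all, 47 were under 10 scaled reads in every library and 7 reached 10 in at least 1.

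Kcna5, the channel most studied in lung artery smooth muscle under hypoxia, fell just outside the detection rule. It stood at 14.4, 9.37, 13.8 and 3.26 scaled reads in NOS-null marrow replicates 1 to 4, against 5.96, 10.3, 7.88 and 8.51 in WT marrow replicates 1 to 4, and averaged 0.391 FPKM. The groups overlapped, and the gene was not tested. By the fourth highest value, the members just outside the rule were Kcnmb4 at 9.45, and Kcna5 and Kcnn1 at 9.37 each. Those just inside were Kcnh3 at 10.25, Kcnab3 at 10.30 and Kcnj5 at 10.40. Kcnj10, known from glia and kidney, reached 22.9 scaled reads in replicate 2 of NOS-null marrow, while the other 7 libraries held 2.98 to 8.20, and Kcnj16 did not exceed 1.088 in any library. Of the 41 tested members, 33 had at least 10 scaled reads in all 8 libraries and 8 in 4 to 7 libraries. For 0 members did all such libraries lie in 1 group. The split could still be uneven. Kcne3 reached 10 in 1 NOS-null marrow library and 4 WT marrow libraries, and Kcnb2 in 3 and 4. Kcnh3 reached it in 3 NOS-null marrow libraries and 1 WT marrow library.

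Genes that work with potassium channels were examined as a list of 43, of which 27 were tested. By limma 3 rose, 0 fell and 24 did not pass, with a median log2 change of 0.14, beside 1.87% of all tested genes higher and 2.18% lower. Among those that rose, Cacna1d, a voltage-gated calcium channel pore, stood at 329, 320, 357 and 306 scaled reads with NOS-null marrow, against 213, 210, 234 and 241 with WT marrow (a log2 change of 0.55, SE 0.09, adjusted p = 0.0172). Trpv4, a calcium-permeable channel of lung endothelium and epithelium, stood at 108, 129, 116 and 99.0 scaled reads with NOS-null marrow, against 88.4, 68.4, 59.1 and 56.7 with WT marrow (a log2 change of 0.74, SE 0.16, adjusted p = 0.0392). In both genes the groups did not overlap. Cacna1d no longer passed without NOS-null marrow replicate 2 (adjusted p = 0.0514) or without WT marrow replicates 1, 2 or 3 (0.0698, 0.0561 and 0.0520). For Trpv4 it was lost without NOS-null marrow replicates 2 or 3 or WT marrow replicates 2, 3 or 4 (adjusted p from 0.0542 to 0.117). With NOS-null marrow replicates 1 and 2 both left out, the adjusted p was 0.0470 for Cacna1d and 0.144 for Trpv4.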

How the data were processed

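The tools named in the submitters' processing notes are CASAVA 1.8.2, Bowtie2 2.2.3, TopHat2 2.0.13, SAMtools 0.1.19 and Cufflinks 2.2.1, with the build mm10. Annotation, settings and strand handling are not stated there. Deposited by the authors were a signal table of read counts divided by 1 size factor per library, and an FPKM table. Whole reads could not be recovered for every value, so no count model was used. Sample titles gave the groups, because the design text describes both with NOS-null marrow.

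Scaled reads were increased by 1 (FPKM, as an alternative, by 0.1), log2-transformed and tested with limma 3.58.1 (R 4.3.3, trend on) over 14008 genes that reached 10 in 4 or more libraries, NOS-null marrow minus WT marrow. Intervals are 95%. The procedure was tested on simulated data. No batch is given in the labels.

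Members and lists were chosen with earlier results of these data known. Members named with values are those with an unadjusted p under 0.05, the 10 highest by FPKM, a list known from lung vessels, epithelium or blood cells, and those nearest the detection rule. Other members were to be given by range and count, and those of them named with values were added after their values were seen. Some members and other genes that these rules take in are not reported here by name, though the counts include them. All 95 symbols matched GENCODE M21 (GRCm38, the mm10 assembly).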

Additional observations from a re-analysis of the deposited data

Results flagged for a closer look

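In 7 of 86 groups of 4 libraries examined (43 genes, members and named partner genes), 1 library stood far from the other 3, with a gap to the nearest of 0.841 or more of the group's range, past Dixon's limit, where chance gives about 1 in 20 groups. Kcnn4 stood at 57.1 scaled reads in WT marrow replicate 2, against 27.6 to 29.3 in the other 3 of its group. Kcnd3 stood at 26.0 scaled reads in NOS-null marrow replicate 2, and the other 3 of that group at 15.8 to 17.4. Kcnj10, which was undetected, stood at 22.9 scaled reads in NOS-null marrow replicate 2, and the other 3 at 5.44 to 8.20. Kcnmb2 stood at 136 scaled reads in NOS-null marrow replicate 1, and the other 3 at 120.7 to 122. Kcnq1ot1 stood at 849 scaled reads in NOS-null marrow replicate 4, and the other 3 at 371 to 429.6. Kcnj16, also undetected, was at 1.088 scaled reads in NOS-null marrow replicate 4 and at 0.985 in WT marrow replicate 3, about 1 read each, and at 0 in the other 3 libraries of each group.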

How the results depend on the processing

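The 3 calls among members did not hold under every setting. The count was 1 with no filter on low values (Kcna2, 92 members tested), 0 without both NOS-null marrow replicates 1 and 2, and 0 to 3 over the 8 fits without 1 library. Over all genes, 567 calls became 181 without both NOS-null marrow replicates 1 and 2 and 71 to 798 without 1 library. The 3 partner calls became 1 without both NOS-null marrow replicates 1 and 2 and 0 to 5 without 1 library. With the replicate number as a block, calls were 0 among members, 135 over all genes and 0 among partners. By limma at an unadjusted p under 0.05 there were 10 members under the block, 6 without both libraries, and 8, 9 and 9 without NOS-null marrow replicate 2, WT marrow replicate 1 and WT marrow replicate 2, the fits with 0 calls. The numbers are not stated to pair animals, and same-numbered libraries deviated together at correlations of 0.0428, 0.169, −0.00266 and 0.151 for replicates 1 to 4, with 2 of 4 best matched by their own number. Fewer samples or residual degrees of freedom were left in those fits, and the cause of the other differences was not tested. Both pseudocounts, FPKM, both rescalings, robust fitting and library weights kept each of the 3 counts within 1.5 times. Quantile normalization moved the median of all genes by −0.02. Of 450 single-gene comparisons (25 genes, 18 alternatives), 406 kept direction and side of the threshold, 38 lost and 1 gained the call, and 5 changed sign. None of the 5 sign changes was in a gene past the threshold: without 1 library Kcnj2 ran from −0.0211 to 0.34, Kcnk3 from −0.0220 to 0.30, Kcnk13 from −0.19 to 0.0329 and Kcnma1 from −0.22 to 0.15. With 4 libraries a group and members at low reads, small changes cannot be seen.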
